A study of Caenorhabditis elegans with 12 samples.

Results

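Wild-type Caenorhabditis elegans of strain N2 were fed bacteria carrying either an empty RNAi vector or a vector against sqd-1, and polyadenylated RNA of whole young adults was sequenced. The 6 wild-type libraries, 3 for each RNAi treatment, were taken by their titles from a study of 12 libraries. The other 6 libraries came from animals lacking adr-2 and are not described here. Embryos of both groups hatched on the RNAi bacteria. The labels give 60 h of growth in the study's design text and 72 h in the growth protocol, so the age at collection is known only as Young Adult. The labels do not say whether the replicates of a group were separate cultures, and p-values measure only the spread between these libraries.

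The gene sqd-1 encodes an RNA-binding protein of the hnRNP family, whose members bind nascent and mature messenger RNA and act in its splicing, export, stability and translation. A C. elegans hermaphrodite makes sperm first, as a larva, and then changes its germ line over to oocytes for the rest of adult life. That change depends on RNA-binding proteins, among them GLD-1 and the PUF family, which act on the messenger RNAs of sex-determining genes such as tra-2 and fem-3. Adults also build a new collagen cuticle at the last moult and stop making larval cuticle genes afterwards.

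The 6 libraries held 29836912 to 33984832 reads assigned to genes, of which 12855291 to 19202536 lay outside ribosomal RNA genes. Ribosomal RNA took 43.5% to 54.2% of the reads in the control libraries and 49.1% to 57.8% in the sqd-1 RNAi libraries. Genes of the mitochondrial chromosome took 1.32% to 2.44% of the reads outside ribosomal RNA in the control libraries and 2.81% to 3.48% in the sqd-1 RNAi libraries. These ranges did not overlap, and the part of this difference in the results below was not tested. All values are read counts divided by the authors' size factor for each library, called normalized reads, and triplets are given in the order of replicates 1, 2 and 3. Libraries of a group differed by more than counting error, with chi-square per degree of freedom of 23.5 for control replicates 1 and 2 and 60.6 and 77.2 for control replicate 3 against them. In the sqd-1 RNAi group it was 28.1 for replicates 2 and 3 and 50.9 and 61.6 for replicate 1 against them. Some gene groups set replicate 3 apart in both. Control replicate 3 was the highest control library for 27 of 27 major sperm protein genes, and sqd-1 RNAi replicate 3 was the lowest sqd-1 RNAi library for the same 27 genes. In both groups replicate 3 was the highest library for 19 of 20 body-shape and furrow collagens and the lowest for 6 of 6 vitellogenins. Results are therefore also given within replicate pairs or without a library where that matters. Several genes named below overlap another annotated gene, and whether the authors' counting used strand is not given, so some of their reads may belong to the neighbour. These are C07G1.7, hrpk-1, exc-7, tra-2, snpc-1.3, sago-2, spe-9, spe-36, spe-38, mbk-2, chs-1, egg-1, egg-3, perm-2, cpg-7, cpg-9, spn-4, nos-2, pie-1, skn-1, vit-2, glp-1, mcm-2, spo-11, xnd-1, syp-1, him-3, prg-1, csr-1, ergo-1, vab-1, bli-1, col-41, col-19, nas-37, dab-1, wrt-2, lin-28, lin-29, elo-4, elo-7, clec-87 and nlp-36. In RNA from whole animals, fewer cells of a type and less RNA per cell cannot be told apart.

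The target of the RNAi was examined first. The gene sqd-1 (WBGene00022235, chromosome IV, 6324174 to 6326422, + strand, protein coding, WBcel235) had 12626, 16795 and 15142 normalized reads in the control libraries and 1375, 1429 and 1399.5 in the sqd-1 RNAi libraries. Every sqd-1 RNAi library lay far below every control library, and the 3 depleted libraries differed from each other by little. The mean fell to 9.43% of the control level (log2 fold change -3.4 ± 0.155, SE, limma adjusted p 1.29e-07). The RNA-editing enzyme gene adr-2 (WBGene00000080, chromosome III, 7231039 to 7232882, - strand) had 848, 1072 and 857 normalized reads on control RNAi and 347, 500.3 and 359 on sqd-1 RNAi. Its groups did not overlap, and its log2 fold change was -1.21 ± 0.185 (adjusted p 8.82e-05). The gene adbp-1, whose product binds ADR-2 and which was named after its value was seen, fell by 1.1 on the log2 scale.

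Genes for other RNA-binding proteins of the nucleus moved too. All 22 hnRNP and splicing factor genes listed changed, 18 lower and 4 higher, against 33.8% of the 14489 genes tested that were lower and 27.3% that were higher. The median over the list was -0.87 on the log2 scale, against 0.04 over all genes tested. The gene hrpa-1, for the hnRNP A1 protein, had 4676, 5584 and 4456 normalized reads on control RNAi and 2289.7, 2597 and 2664 on sqd-1 RNAi (log2 fold change -0.96 ± 0.155, adjusted p 0.000136). The largest falls were in rsp-5, for an SR splicing factor (-1.31 ± 0.174), and hrpk-1, for an hnRNP K protein (-1.27 ± 0.173). The 4 higher genes were unc-75, sup-12, exc-7 and mbl-1, splicing regulators known from neurons or muscle. Of these, unc-75 rose by 0.95 and sup-12 by 0.62 on the log2 scale, while exc-7 and mbl-1, named after their values were seen, were at 0.51 and 0.48. Without control replicate 1 or sqd-1 RNAi replicate 1 the count of higher genes was 2.

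Across the transcriptome, 8849 of 14489 genes tested (61.1%) passed an adjusted p under 0.05, 3957 higher and 4892 lower on sqd-1 RNAi. The 2 groups of libraries did not overlap for 9875 genes (68.2%). The middle of the distribution moved little, with a median log2 fold change of 0.04 and quartiles of -0.73 and 0.71. At least 2-fold changes were called for 2675 higher genes (18.5%) and 2349 lower genes (16.2%), and at least 8-fold changes for 94 (0.649%) and 92 (0.635%). The balance of higher and lower genes depended on the scaling. TMM and upper-quartile scaling shifted the median of all genes by 0.13 and 0.16 on the log2 scale, edgeR on whole reads by 0.20, and scaling to the reads outside ribosomal RNA by 0.37. The share of called genes that were higher was 44.7% with the authors' size factors, 55.6% with edgeR and 64.6% with the scaling to reads outside ribosomal RNA.

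**Figure D1:**
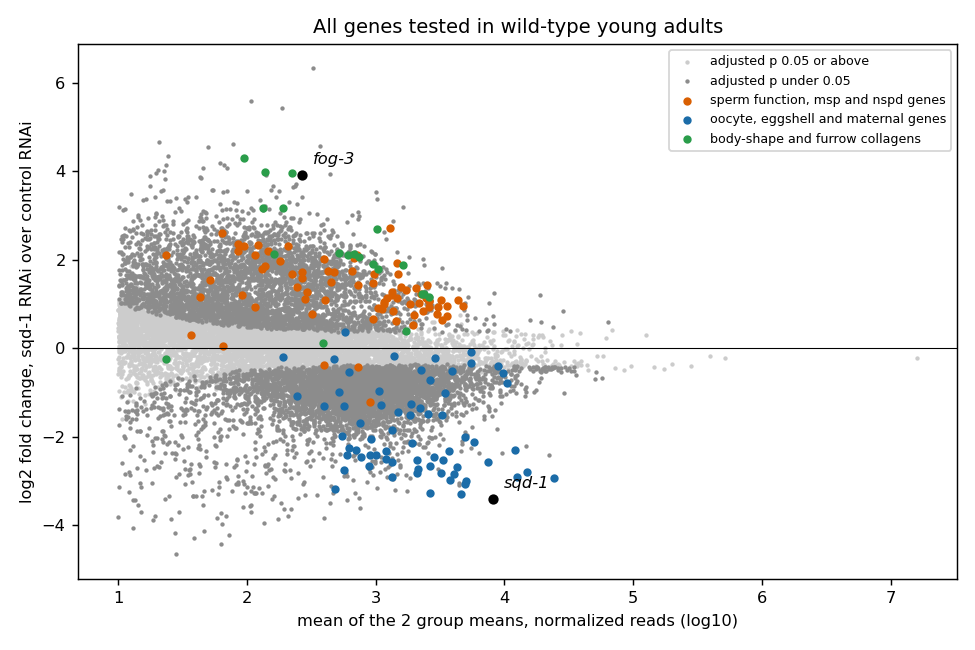
Log2 fold change (sqd-1 RNAi over control RNAi, y axis) against the mean of the group means in normalized reads (log10, x axis) for the 14489 genes tested, 1 point a gene, with 3 groups of listed genes in colour. Sperm genes lie mostly above 0 and oocyte, eggshell and maternal genes mostly below it, with sqd-1 at -3.40 and fog-3 at 3.91.

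Among called genes whose groups did not overlap and whose higher group averaged at least 100 normalized reads, the 10 largest rises ran from 3.98 to 6.33 on the log2 scale. Named genes among them were lpr-3, dpy-3 and dpy-7, which encode parts of the cuticle or of the matrix it is built on, and fbxa-182, for an F-box protein. The gene T26H5.9 (WBGene00044206, chromosome V, 15444916 to 15445420, + strand) had 7.16, 5.401 and 8.97 normalized reads on control RNAi and 271, 295 and 529 on sqd-1 RNAi, with a log2 fold change of 5.44 ± 0.294. For fbxa-182 the values were 7.16, 2.701 and 6.28 on control RNAi and 155, 116 and 176 on sqd-1 RNAi, a log2 fold change of 4.62 ± 0.342. Both were under 10 normalized reads in every control library and above 100 in every sqd-1 RNAi library. The largest value, that of C07G1.7, rested on uneven control libraries at 113, 0 and 2.69 normalized reads against 808, 556 and 484. With DESeq2 on whole reads it was 4.04 and not called (adjusted p 0.0576), below T26H5.9, which was at 5.68. The 10 largest falls ran from -4.43 to -3.72. In try-1, for a trypsin-like protease, the level was 298, 496 and 358 on control RNAi and 32.5, 45.1 and 12.4 on sqd-1 RNAi, a log2 fold change of -3.78 ± 0.368. In K04C1.5 it was 668, 869.6 and 671 on control RNAi and 74.3, 88.2 and 19.3 on sqd-1 RNAi, a log2 fold change of -3.83 ± 0.413. In both of these genes sqd-1 RNAi replicate 3 was the lowest library.

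Most genes that set the sexual fate of the germ line fell, while the pair that acts last to specify sperm rose. Of 29 sex determination genes tested, 26 were lower (89.7%, against 33.8% of all genes tested), 2 were higher and 1 was not called. The median log2 fold change was -1.2, against -1.31 for the germ cell markers and -1.13 for the meiotic chromosome genes described below. With scaling to the reads outside ribosomal RNA 19 were lower. The 2 higher genes were fog-1, which encodes a CPEB-family RNA-binding protein, and fog-3, which encodes a Tob-family protein, and both are required for germ cells to become sperm. The level of fog-3 (WBGene00001483, chromosome I, 10016765 to 10018121, + strand) was 27.6, 32.4 and 34.98 normalized reads on control RNAi and 363, 562 and 573 on sqd-1 RNAi. Every sqd-1 RNAi library was more than 10 times the highest control library, and the log2 fold change was 3.91 ± 0.221 (adjusted p 3.81e-07). The level of fog-1 was 295, 328 and 256 on control RNAi and 659, 1201 and 845 on sqd-1 RNAi, without overlap (log2 fold change 1.58 ± 0.212, adjusted p 3.24e-05).

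Upstream of them, gld-1, whose product represses translation of tra-2 and many maternal messenger RNAs, showed the largest fall on the list. Its normalized reads (WBGene00001595, chromosome I, 7695681 to 7698222, + strand) were 13553, 18554 and 16003 on control RNAi and 2984, 3845 and 2614 on sqd-1 RNAi, a log2 fold change of -2.36 ± 0.182 (adjusted p 1.89e-06). The gene fog-2, for the F-box protein that works with GLD-1 in hermaphrodites, had a log2 fold change of -1.35 ± 0.191. Genes on both sides of the male and female decision were lower. The feminizing receptor gene tra-2 had 1383, 1769 and 1195 normalized reads on control RNAi and 436, 547 and 407 on sqd-1 RNAi (-1.64 ± 0.185). The masculinizing gene fem-3 had 748, 948 and 847 on control RNAi and 162, 315 and 199 on sqd-1 RNAi (-1.96 ± 0.224). In both genes every sqd-1 RNAi library lay below every control library. The other FEM complex genes, fem-1 and fem-2, were at -0.58 and -1.29 on the log2 scale and were named after their values were seen, and fem-1 lost its call with scaling to the reads outside ribosomal RNA (-0.21, adjusted p 0.195). The terminal transcription factor gene tra-1 was at -0.43 ± 0.163 (adjusted p 0.0358), a call lost under TMM scaling, upper-quartile scaling, scaling to the reads outside ribosomal RNA and edgeR, with no variance trend, and without control replicate 2 or 3 or sqd-1 RNAi replicate 2 or 3. In these its log2 fold change was -0.44 to -0.06.

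Among the RNA regulators of the change from sperm to oocytes, 21 of 22 were lower (95.5%, against 33.8% of all genes tested). The PUF family gene puf-8 had 1867, 2499 and 1985 normalized reads on control RNAi and 441, 527 and 401 on sqd-1 RNAi, a log2 fold change of -2.21 ± 0.172 (adjusted p 1.89e-06). Its relative fbf-2 was at -1.08 ± 0.186, and gld-3, for a Bicaudal-C family protein that antagonizes the FBF proteins, was at -1.58 ± 0.185. The exception was cpb-1, for a CPEB-family protein used in spermatogenesis, with 902, 1019.5 and 945 normalized reads on control RNAi and 729.7, 1042 and 919 on sqd-1 RNAi (log2 fold change -0.1 ± 0.169, adjusted p 0.606). Its groups overlapped, and its sign turned positive under 4 other scalings or tools and without sqd-1 RNAi replicate 1.

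**Figure D2:**
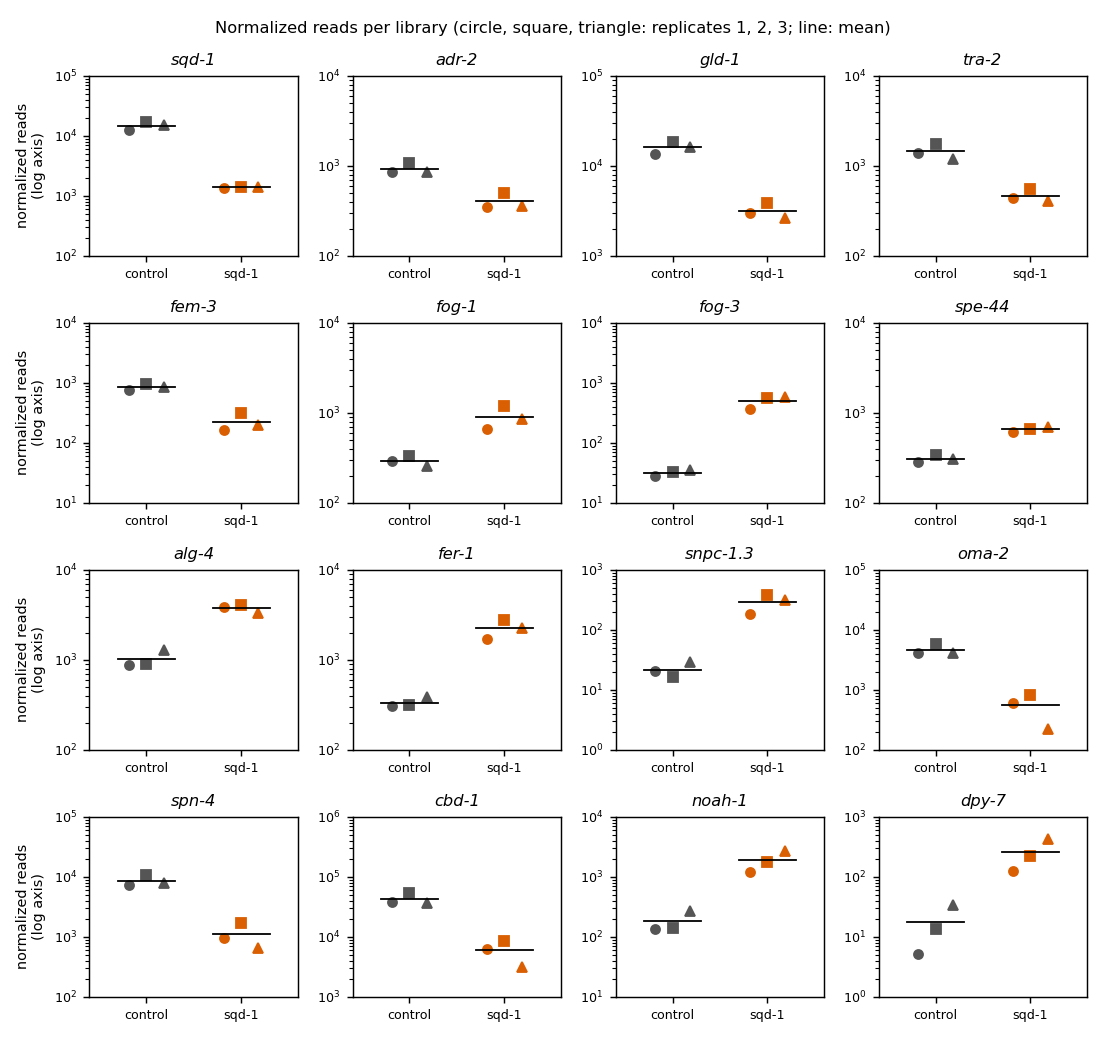
Normalized reads (log axis) of 16 genes in each of the 6 libraries, with circles, squares and triangles for replicates 1, 2 and 3 and a line at each group mean. In every panel the 3 control libraries and the 3 sqd-1 RNAi libraries do not overlap, and fog-3 lies at 27.6 to 35 on control RNAi and 363 to 573 on sqd-1 RNAi.

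Genes that drive the sperm program and genes for sperm function rose together. All 5 regulators on the list were higher (27.3% of all genes tested were), with a median log2 fold change of 1.7. They stayed called in every alternative. The spermatocyte transcription factor gene spe-44 had 281, 340.3 and 308 normalized reads on control RNAi and 610.4, 667 and 692 on sqd-1 RNAi, a log2 fold change of 1.08 ± 0.1604 (adjusted p 7.08e-05). The GATA factor gene elt-1, which acts in sperm gene expression and in the epidermis, was at 1.45 ± 0.222. The sperm Argonaute genes alg-3 and alg-4 were at 1.7 ± 0.175 and 1.89 ± 0.181. The level of alg-4 was 875, 907 and 1301 on control RNAi and 3882, 4106 and 3277 on sqd-1 RNAi, with no overlap. The gene snpc-1.3, for a factor that transcribes male piRNAs, had 20.5, 16.2 and 28.7 on control RNAi and 184, 388 and 313 on sqd-1 RNAi, a log2 fold change of 3.67 ± 0.292.

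Of 39 genes for sperm assembly, activation and fertilization, 34 were higher (27.3% of all genes tested were), 2 were lower and 3 were not called, and the median was 1.69. The count of 34 was the same in all scalings and without any 1 library. The ferlin gene fer-1, needed for the fusion of sperm membranous organelles, had 306, 315 and 384 normalized reads on control RNAi and 1712, 2773 and 2249 on sqd-1 RNAi. That log2 fold change, 2.72 ± 0.191 (adjusted p 1.3e-06), was the highest on the list. The sperm presenilin gene spe-4 was at 2.1 ± 0.191 and the casein kinase gene spe-6, which holds back sperm activation, at 2.01 ± 0.197. Genes for sperm surface proteins that act at fertilization were at 2.33 ± 0.204 for spe-9 and 2.6 ± 0.339 for spe-38. The sperm phosphatase genes gsp-3 and gsp-4 were at 1.32 ± 0.206 and 1.39 ± 0.213. The 2 lower genes were spe-39, which also acts in vesicle sorting outside sperm (-1.2 ± 0.179), and the zinc transporter gene zipt-7.1 (-0.43 ± 0.161, adjusted p 0.0323). The call of zipt-7.1 was lost under 4 scalings or tools, with no variance trend, and without control replicate 2 or 3 or sqd-1 RNAi replicate 1 or 3, with adjusted p of 0.056 to 0.684. The 3 genes not called were spe-36, spe-48 and cst-1, named after their values were seen, of which spe-48 was called lower in the fit blocked by replicate number (adjusted p 0.0279).

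Major sperm protein genes, which encode the cytoskeletal protein of crawling sperm that also signals to oocytes, rose as well. All 27 of the 29 listed that had enough reads were higher (27.3% of all genes tested were). Their log2 fold changes were 0.54 to 2.32, with a median of 0.96. Summed over the list, normalized reads were 31284, 35944 and 48543 in the control libraries and 83414, 82729 and 53759 in the sqd-1 RNAi libraries. The sums did not overlap, but replicate 3 of the 2 groups lay close together, and the median differences within replicate pairs 1, 2 and 3 were 1.5, 1.26 and 0.18. Between 23 and 27 of the 27 genes stayed called when any 1 library was left out, and 25 in the fit blocked by replicate number. The libraries of the 2 groups did not overlap for 20 of the 27 (31.7% of all genes tested were higher without overlap). Of the 27, 11 rose by at least 2-fold (18.5% of all genes tested did). The genes share much of their sequence, so reads may be split between copies. The largest rise was in msp-74, at 25.6, 29.7 and 36.8 on control RNAi and 148, 205 and 126 on sqd-1 RNAi (log2 fold change 2.32 ± 0.247).

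Smaller families made in sperm moved the same way. Of 20 genes of other MSP-domain and sperm-specific families 18 were higher (90%, against 27.3% of all genes tested, median 1.04). Of 9 nspd genes 9 were higher (median 1.23). In nspd-6 the level was 187, 199.8 and 196 normalized reads on control RNAi and 634, 717 and 609 on sqd-1 RNAi, a log2 fold change of 1.74 ± 0.1603. The summed level of the nspd genes was 5907, 5881 and 8023 in the control libraries and 14340.5, 16093 and 12553 in the sqd-1 RNAi libraries. Every sqd-1 RNAi sum was above every control sum, in replicate 3 by the smallest margin.

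Genes of the growing and maturing oocyte fell, and their list had the lowest median of all lists described here apart from the eggshell list. Of 21 oocyte genes, 20 were lower (95.2%, against 33.8% of all genes tested) and 0 were higher, with a median of -2.26. The exception, rme-1, was not called and was named after its value was seen. With scaling to the reads outside ribosomal RNA rme-1 was called higher (0.302, limma adjusted p 0.03). The gene oma-2 (WBGene00003865, chromosome V, 8029439 to 8031214, + strand), for a zinc-finger protein needed for oocyte maturation, had 4163, 5766 and 4116 normalized reads on control RNAi and 614, 822 and 219 on sqd-1 RNAi. Its log2 fold change was -3.26 ± 0.358 (adjusted p 8.15e-06), and sqd-1 RNAi replicate 3 was the lowest library. Its partner oma-1 had 2765, 3669 and 2877 on control RNAi and 653, 970.5 and 548 on sqd-1 RNAi (-2.13 ± 0.207). The PUF gene puf-5, which acts in late oogenesis, was at -3.0 ± 0.325. The gene lin-41, for a TRIM-NHL protein that restrains oocyte maturation, was at -2.67 ± 0.253, and rme-2, for the yolk receptor of oocytes, was at -2.57 ± 0.277. The kinase gene mbk-2, which acts at the transition from oocyte to embryo, was at -1.0 ± 0.165. A weaker member was cyb-1, for a mitotic cyclin (-0.52 ± 0.166, adjusted p 0.0155), which lost its call with scaling to the reads outside ribosomal RNA, with edgeR and without control replicate 2 (adjusted p 0.0788) or sqd-1 RNAi replicate 3 (adjusted p 0.079). Summed over the list, sqd-1 RNAi libraries held 31385, 39225 and 26023 normalized reads against 84602, 114667 and 87490.5 in the controls, 33.7% of the control mean.

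The eggshell list fell to 23.6% of its summed control level. Of 19 genes for the eggshell and egg activation 15 were lower (78.9%, against 33.8% of all genes tested) and 0 were higher (median -2.41). All 15 fell by at least 2-fold, as did 16.2% of all genes tested. The gene cbd-1 (WBGene00010351, chromosome IV, 11372991 to 11377627, + strand), for a chitin-binding protein of the vitelline layer, had 37833, 53232 and 36459 normalized reads on control RNAi and 6194, 8629 and 3140.3 on sqd-1 RNAi, a log2 fold change of -2.92 ± 0.293. Among the called genes outside ribosomal RNA it had the largest loss in mean normalized reads. The chitin synthase gene chs-1 had 7737, 10206 and 7192 on control RNAi and 866, 1123 and 613 on sqd-1 RNAi, a log2 fold change of -3.3 ± 0.215. Both genes were without overlap, and in both sqd-1 RNAi replicate 3 was lowest. The proteoglycan genes cpg-1 and cpg-2 were at -2.8 ± 0.323 and -2.9 ± 0.278, egg-1, for a receptor-like protein on the egg surface, at -2.81 ± 0.285, and egg-3, for an egg activation protein, at -2.56 ± 0.2202. The 4 genes not called were perm-2 and, named after their values were seen, perm-4, cpg-7 and cpg-9. Of these, cpg-7 was called higher with scaling to the reads outside ribosomal RNA (limma adjusted p 0.0176) and without control replicate 3 (0.0197). Without sqd-1 RNAi replicate 1 perm-4 was called lower (limma adjusted p 0.0432). The level of perm-2 was 6169.7, 6001 and 5859.7 on control RNAi and 6344, 5447 and 3179 on sqd-1 RNAi (-0.33 ± 0.218, adjusted p 0.207), a value that turned positive (0.045) with scaling to the reads outside ribosomal RNA.

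Maternal messenger RNAs for polarity and cell fate in the early embryo fell with them. Of 27 tested, 24 were lower (88.9%, against 33.8% of all genes tested) and 0 higher (median -1.51). RNA-binding proteins of the early embryo made up the largest falls. The level of spn-4 (WBGene00004984, chromosome V, 6783187 to 6784903, - strand) was 7440.0, 10681 and 7933 normalized reads on control RNAi and 948, 1723 and 653 on sqd-1 RNAi, a log2 fold change of -3.07 ± 0.278 (adjusted p 3.12e-06). The values of nos-2, pos-1, pie-1 and mex-5 were -3.18, -2.97, -2.74 and -2.12, and cey-2, for a Y-box protein stored with maternal RNA, was at -2.3 ± 0.186. Smaller falls were found in par-2, for a cortical polarity protein (-0.99 ± 0.175), and in skn-1, for a transcription factor of the early blastomeres that also serves the adult stress response (-0.72 ± 0.159). Markers of zygotic transcription in embryos, which adult hermaphrodites may carry in the uterus, were low in both groups. Of 16 such genes 12 had a mean under 10 normalized reads over both groups, and the list summed to 143 to 178 in the control libraries and 136 to 172 in the sqd-1 RNAi libraries.

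**Figure D3:**
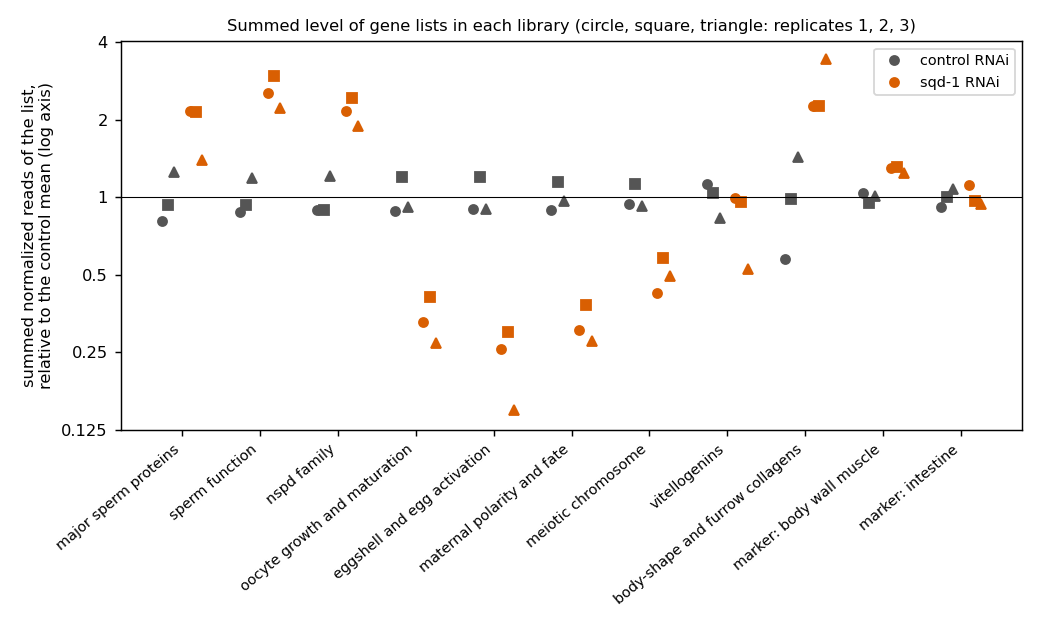
Summed normalized reads of 11 gene lists in each library, divided by the mean of the control libraries (log2-spaced axis), with circles, squares and triangles for replicates 1, 2 and 3. The major sperm protein, sperm function and nspd sums lie above all control sums on sqd-1 RNAi and the oocyte, eggshell and maternal sums below them, and replicate 3 is the lowest eggshell, vitellogenin and major sperm protein sum of the sqd-1 RNAi group.

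The yolk proteins loaded into oocytes are made by the intestine, and their messenger RNAs did not pass the test. Of 6 vitellogenin genes 0 were called with limma, with edgeR or with DESeq2, and 1 had an unadjusted limma p under 0.05. That gene, vit-4 (-0.64 ± 0.291, adjusted p 0.0734), named after its value was seen, was called lower with the replicate number as a block and without sqd-1 RNAi replicate 1 or 2. The median over the list was -0.4, or -0.06 without sqd-1 RNAi replicate 3. The level of vit-2 was 352797, 328598 and 269095 normalized reads on control RNAi and 298275, 288821 and 160331 on sqd-1 RNAi (-0.39 ± 0.258, adjusted p 0.202). Its groups overlapped, with sqd-1 RNAi replicate 3 below all other libraries. The value of vit-6 was -0.17 ± 0.2504 (adjusted p 0.564).

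Genes of the mitotic and meiotic germ line were mostly lower. The Notch receptor gene glp-1, which keeps germ cells in mitosis, had 3964, 5439 and 3766 normalized reads on control RNAi and 1015, 1386 and 870.0 on sqd-1 RNAi, a log2 fold change of -2.02 ± 0.199. Its stem cell targets sygl-1 and lst-1 were at -2.22 ± 0.245 and -1.02 ± 0.176. Of 31 cell cycle and replication genes 30 were lower (96.8%, against 33.8% of all genes tested, median -1.66). They included the mitotic cyclin gene cyb-3 (-2.84 ± 0.237), the replicative helicase gene mcm-2 (-2.01 ± 0.183) and the ribonucleotide reductase gene rnr-1 (-2.06 ± 0.193). The exception, cki-1, for an inhibitor of the cell cycle, was not called (0.35) and was named after its value was seen. With scaling to the reads outside ribosomal RNA cki-1 was called higher (0.72, limma adjusted p 0.0308). Of 45 meiotic chromosome genes 42 were lower (93.3%, against 33.8% of all genes tested, median -1.13), and 34 were with scaling to the reads outside ribosomal RNA. The gene spo-11, for the enzyme that makes meiotic breaks, had 671, 775 and 698 on control RNAi and 243, 347 and 276 on sqd-1 RNAi (-1.32 ± 0.176). The X chromosome pairing gene him-8 was at -1.64 ± 0.179, the chromatin gene xnd-1, which acts in crossover placement, at -1.65 ± 0.1898, and the cohesin gene rec-8 at -1.22 ± 0.172. Genes of the axis and of the synaptonemal complex between paired chromosomes included weaker members. The central region gene syp-1 was not called, at 988, 984 and 825 on control RNAi and 610.4, 887 and 831 on sqd-1 RNAi (-0.28 ± 0.178, adjusted p 0.189), and its groups overlapped. The axis gene him-3 was at -0.41 ± 0.166 (adjusted p 0.0466), a call lost under TMM, upper-quartile and outside ribosomal RNA scaling and with edgeR and DESeq2. It was also lost without control replicate 2 or 3 or sqd-1 RNAi replicate 1 (adjusted p 0.0849 to 0.164 without these libraries). Limma with no filter on the mean (adjusted p 0.0538) or no variance trend (adjusted p 0.0832) lost it too.

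**Figure D4:**
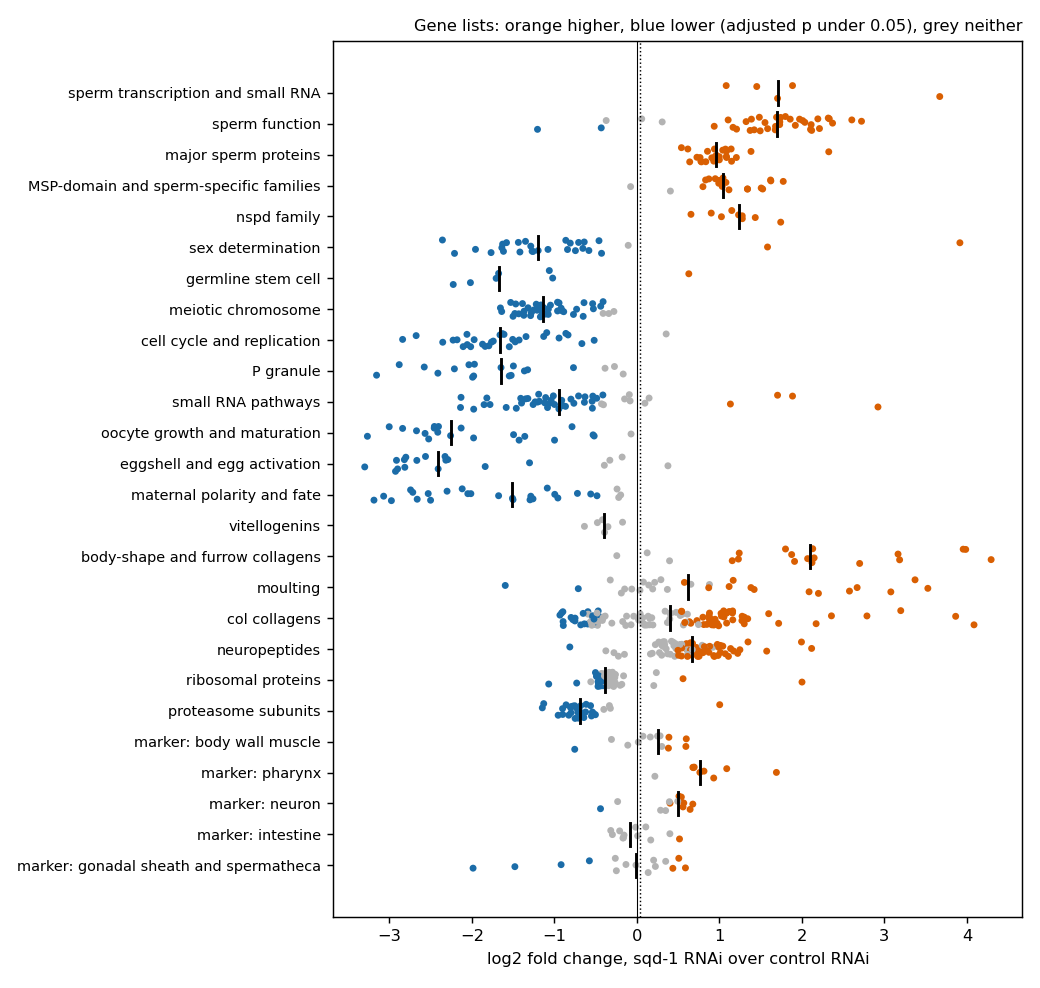
Log2 fold change (sqd-1 RNAi over control RNAi, x axis) of every tested member of 26 gene lists, 1 point a gene, with orange for higher, blue for lower and grey for not called at an adjusted p of 0.05, black bars at the list medians and a dotted line at the median of all genes. Sperm lists have medians of 0.96 to 1.7 and oocyte, eggshell and maternal lists medians of -2.41 to -1.51.

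Germ granule genes followed the oocyte genes in direction. Of 19 P granule genes 16 were lower (84.2%, against 33.8% of all genes tested, median -1.65). The gene meg-1, for a disordered protein of embryonic granules, had 1531, 2128 and 1697 normalized reads on control RNAi and 285, 417 and 64.8 on sqd-1 RNAi (-3.15 ± 0.477). The core granule gene pgl-1 was at -1.97 ± 0.176 and pgl-3 at -0.77 ± 0.161, and the helicase gene cgh-1, which protects maternal messenger RNA, at -2.41 ± 0.188. The Vasa-like helicase gene glh-1 was not called (-0.39 ± 0.178, adjusted p 0.0755), but passed with the replicate number as a block (adjusted p 0.0205) and without sqd-1 RNAi replicate 2 (adjusted p 0.0492). Among 19 Argonaute genes 12 were lower (63.2%, against 33.8% of all genes tested) and 4 higher (21.1%, against 27.3%). The higher genes were alg-3, alg-4, sago-2 and wago-10. The level of wago-10 (WBGene00020707, chromosome V, 343428 to 347640, + strand) was 138, 149.9 and 228 normalized reads on control RNAi and 1183, 1312 and 1341 on sqd-1 RNAi, a log2 fold change of 2.92 ± 0.197 (adjusted p 1.13e-06), while sago-2, named after its value was seen, was at 1.13. The lower genes included the piRNA Argonaute gene prg-1 (-0.71 ± 0.168), csr-1, which acts on germline genes (-0.86 ± 0.186), and ergo-1, of the oocyte and embryo small RNA pathway (-2.13 ± 0.198). Of the other 30 small RNA genes, for RNA-dependent polymerases, dsRNA processing and piRNA factors, 26 were lower (86.7%) and 0 higher.

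Genes of germ cell death and histone genes were lower too. All 12 apoptosis and engulfment genes tested were lower (against 33.8% of all genes tested, median -1.12), with the survival gene ced-9 at -1.84 ± 0.182. Of 32 histone genes 25 were lower (78.1%) and 4 higher, or 2 higher without control replicate 1 (median -1.36). They were measured in poly-A selected RNA, in which most replication-linked histone messengers are poorly held. The gene his-70, for a histone H3.3 variant, had 63.4, 68.9 and 138 normalized reads on control RNAi and 320.4, 333 and 328 on sqd-1 RNAi, a log2 fold change of 1.94 ± 0.258. The gene his-67 had 454, 604 and 263 on control RNAi and 63.9, 61.9 and 50.2 on sqd-1 RNAi (-2.81 ± 0.265). Near-identical histone copies may share reads, so the values of single copies are uncertain.

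Markers of the tissues that whole animals hold were examined next. The 14 germ cell markers summed to 115119 to 151434 normalized reads in the control libraries and 37072 to 49192 in the sqd-1 RNAi libraries. Of the 14, 12 were lower (85.7%, against 33.8% of all genes tested). They include genes already described above, among them gld-1, pgl-1, cgh-1, him-3 and rec-8, and so are not separate from those results. Intestinal markers summed to 69235 to 81543 and 71491 to 84564, with 1 of 12 called (median -0.09, which turned positive under TMM, upper-quartile, edgeR and outside ribosomal RNA scaling and without control replicate 2 or sqd-1 RNAi replicate 3). With scaling to the reads outside ribosomal RNA 6 of the 12 were higher, and their share of those reads was 0.409% to 0.473% on control RNAi and 0.515% to 0.628% on sqd-1 RNAi, without overlap. The intestinal transcription factor gene elt-2 and the esterase gene ges-1 were at -0.16 ± 0.188 and 0.01 ± 0.182, both not called. Of 13 body wall muscle markers 4 were higher (30.8%, near the 27.3% of all genes tested) and 1 lower (7.69%, against 33.8%). Their sums were 165893 to 182759 and 216908 to 229230.0, without overlap. Only 2 muscle markers were higher without control replicate 2 or without any 1 of the sqd-1 RNAi libraries. As a share of the reads outside ribosomal RNA the muscle markers took 0.891% to 1.12% in the control libraries and 1.61% to 1.73% in the sqd-1 RNAi libraries. Among the called genes outside ribosomal RNA, the body wall myosin gene unc-54 had the largest gain in mean normalized reads. It went from 56879, 45367 and 49232 to 83412, 75248 and 70294 (0.6 ± 0.175, adjusted p 0.00927). The limma adjusted p of unc-54 was 0.0654 without sqd-1 RNAi replicate 1 and 0.0959 with no filter on the mean, so its call was lost in both. Of 9 pharynx markers 8 were higher (88.9%, median 0.76), with sums of 4178 to 5261 on control RNAi and 7026 to 8015 on sqd-1 RNAi. Of 14 neuron markers 8 were higher (57.1%) and snb-1 was lower. Without control replicate 2 the higher count was 3, and snb-1 lost its call without control replicate 2 or 3 or sqd-1 RNAi replicate 2 or 3, under TMM, upper-quartile and outside ribosomal RNA scaling and with edgeR. Of 15 gonadal sheath and spermatheca markers 3 were higher (20%) and 4 lower (26.7%), both below the shares of all genes tested (27.3% and 33.8%). The median was -0.01, and 0 or 1 were higher without control replicate 1, 2 or 3 or sqd-1 RNAi replicate 1. The largest falls on this list were in inx-22 (-1.98 ± 0.2103) and vab-1 (-1.48 ± 0.193). The gene inx-22 encodes a gap junction protein of oocytes, and vab-1 an Eph receptor that is also made in oocytes. These falls therefore cannot be assigned to the sheath or spermatheca. The sheath transcription factor gene lim-7 was not called (-0.01 ± 0.204). The part of these differences in tissue markers in the other results was not tested.

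Most of the listed furrow, strut and body-shape collagens rose. Of 20 body-shape and furrow collagens tested 17 were higher (85%, against 27.3% of all genes tested) and 0 were lower (median 2.1). All 17 rose by at least 2-fold, as did 18.5% of all genes tested. The furrow collagen gene dpy-7 (WBGene00001069, chromosome X, 7536467 to 7537792, - strand) had 5.11, 13.5 and 34.1 normalized reads on control RNAi and 127, 226 and 424 on sqd-1 RNAi, a log2 fold change of 3.98 ± 0.531 (adjusted p 3.14e-05). Its control levels were low and uneven, and in both groups replicate 3 was the highest library. The furrow collagen gene dpy-3 was at 4.29 ± 0.473, the blister collagen gene bli-1 at 2.7 ± 0.361 and rol-6, whose product shapes the body, at 2.15 ± 0.304. Summed over the list, normalized reads were 5528, 9406 and 13731 on control RNAi and 21686, 21582 and 32963 on sqd-1 RNAi. Within replicate pairs 1, 2 and 3 the list medians were 2.4, 1.88 and 1.83, so the rise was present in each pair. The 3 genes not called were dpy-17, bli-6 and mec-5, named after their values were seen. With scaling to the reads outside ribosomal RNA bli-6 and mec-5 were called higher (limma adjusted p 0.0187 and 0.0282). Without control replicate 3 bli-6 was also called higher (limma adjusted p 0.0244).

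The wider set of cuticle and moulting genes held genes that moved both ways. Among 109 col genes 45 were higher (41.3%, against 27.3% of all genes tested) and 22 lower (20.2%, against 33.8%), with a median of 0.4. The lower count was 4 to 19 under other scalings and tools, 8 without control replicate 3, 12 without control replicate 2 and 13 without sqd-1 RNAi replicate 3. Without control replicate 1 the higher count was 30. The rise of col-41, from 2.05, 2.701 and 8.97 normalized reads on control RNAi to 61.8, 62.9 and 136 on sqd-1 RNAi, was the largest (4.08 ± 0.468). The adult collagen gene col-19 had 20286, 22820.5 and 24281 on control RNAi and 18993, 15699 and 12401 on sqd-1 RNAi (-0.53 ± 0.182, adjusted p 0.021). That call was lost under TMM and upper-quartile scaling, with scaling to the reads outside ribosomal RNA, with edgeR and with no filter on the mean (limma adjusted p 0.0577). It was also lost without control replicate 2 or 3 or sqd-1 RNAi replicate 3. Of 28 moulting genes 13 were higher (46.4%) and 2 lower (7.14%, median 0.62), with 20 higher under scaling to the reads outside ribosomal RNA. The zona pellucida domain gene noah-1 (WBGene00016422, chromosome I, 5874416 to 5878958, - strand), for a protein of the matrix under a new cuticle, had 133, 140.4 and 269.9 on control RNAi and 1197, 1786 and 2650.1 on sqd-1 RNAi. Its log2 fold change was 3.37 ± 0.296 (adjusted p 2.75e-06). The protease inhibitor gene mlt-11 was at 3.53 ± 0.496 and the lipocalin gene lpr-3 of the apical matrix at 4.59 ± 0.509. The moult regulator gene nhr-23 was not called, at 915, 1196 and 969 on control RNAi and 864, 1148 and 940.2 on sqd-1 RNAi (-0.06 ± 0.171, adjusted p 0.768), and its sign turned under 4 other scalings or tools. The metalloprotease gene nas-37, used in shedding the old cuticle, was at 0.37 ± 0.165 (adjusted p 0.0675), but was called higher in the fit blocked by replicate number (adjusted p 0.0153), under the 3 other scalings, with edgeR and DESeq2, and without sqd-1 RNAi replicate 1 (adjusted p 0.0221). The lower genes were dab-1 (-1.59 ± 0.192) and skpo-1 (-0.71 ± 0.198), and skpo-1 lost its call with scaling to the reads outside ribosomal RNA (adjusted p 0.0893).

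Hedgehog-related genes, many of them made in the epidermis in step with the moults, showed a similar pattern. Of 57 tested, 32 were higher (56.1%, against 27.3% of all genes tested) and 4 lower (7.02%, against 33.8%), and the median was 0.65. The lower count was 7 with the replicate number as a block and 2 without sqd-1 RNAi replicate 3. The warthog gene wrt-10 had 12.3, 8.102 and 26.9 normalized reads on control RNAi and 111, 238 and 440.0 on sqd-1 RNAi (3.93 ± 0.461), and wrt-2 was at 3.56 ± 0.396. The patched-related gene ptr-2 was at -2.15 ± 0.2199, and ptc-1, for a patched protein that acts in the germ line, had 10509.5, 13576 and 9157 on control RNAi and 3766, 5279 and 3544 on sqd-1 RNAi (-1.4 ± 0.195). Among the heterochronic timing genes, lin-42, the period-family gene whose level cycles with the moults, had 185, 203 and 317 on control RNAi and 889.9, 787 and 1315 on sqd-1 RNAi (2.09 ± 0.235, adjusted p 9.55e-06). The genes lin-14 and lin-29 were at 0.7 ± 0.157 and 0.85 ± 0.194, and lin-28 was at -0.78 ± 0.169. Of the 11 hypodermis markers 5 were higher (45.5%, against 27.3% of all genes tested) and 3 lower (27.3%, against 33.8%). Their sums were 62235 to 74426 on control RNAi and 39701 to 60780.3 on sqd-1 RNAi. The count of lower markers was 1 without control replicate 2 or 3 or sqd-1 RNAi replicate 3. These markers include dpy-7, rol-6, col-19 and wrt-2, described above, and so are not separate from the cuticle and hedgehog results. The part of a change in epidermal tissue in those results was not tested.

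Detoxification and defence families held genes that moved both ways. Their shares of higher genes were near or above that of all genes tested (27.3%), and their shares of lower genes were below it (33.8%). Among 55 cytochrome P450 genes 14 were higher and 6 lower, among 57 UDP-glucuronosyltransferase genes 19 and 2, and among 95 C-type lectin genes 34 and 14. Thus 25.5%, 33.3% and 35.8% were higher and 10.9%, 3.51% and 14.7% lower, with medians of 0.40, 0.48 and 0.37. The higher counts grew to 27, 36 and 53 with scaling to the reads outside ribosomal RNA, the P450 count was 9 without sqd-1 RNAi replicate 1, and 0 glucuronosyltransferase genes were lower without sqd-1 RNAi replicate 3. The P450 gene cyp-14A5 (WBGene00000373, chromosome V, 5421018 to 5423282, - strand) had 315, 302 and 326 normalized reads on control RNAi and 2629, 3600.3 and 2540.5 on sqd-1 RNAi, a log2 fold change of 3.2 ± 0.1696 (adjusted p 3.66e-07). Every sqd-1 RNAi library was far above every control library. The glutathione transferase gene gst-24 had 35.8, 39.2 and 47.5 on control RNAi and 250.2, 238 and 344 on sqd-1 RNAi (2.72 ± 0.216). The fatty acid elongase genes elo-7 and elo-4 were at 2.31 ± 0.195 and 2.1 ± 0.247. In the other direction, the lectin gene clec-87 had 6757, 9532 and 7346 on control RNAi and 1048, 1573 and 475 on sqd-1 RNAi (-3.08 ± 0.322), and the P450 gene cyp-31A2, which acts in making the eggshell's lipid layer, was at -2.04 ± 0.203. Of 13 pals genes tested, a family that responds to intracellular pathogens, 5 were higher (38.5%) and 0 lower, and 24 more had too few reads to be tested. Heat shock genes differed from these families. Of 17 tested, 3 were higher (17.6%, against 27.3% of all genes tested) and 7 lower (41.2%, against 33.8%), with a median of 0.26. With scaling to the reads outside ribosomal RNA 6 were higher and 2 lower. Their largest fall was in the mitochondrial chaperonin gene hsp-60, from 9379, 11328 and 10510.4 to 2973, 3545 and 3921 (-1.59 ± 0.161).

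Genes of protein synthesis and turnover were mostly lower or not called. Of 78 ribosomal protein genes 26 (33.3%, against 33.8% of all genes tested) were lower and 2 (2.56%, against 27.3%) higher (median -0.39). The lower count was 2 under TMM and upper-quartile scaling, with edgeR and with scaling to the reads outside ribosomal RNA, and 71 without control replicate 1, while leaving out any 1 of the other libraries gave 2 to 6. The 2 higher genes were rpl-42 (2.0 ± 0.237) and rpl-11.2. The paralogs rpl-11.1 and rpl-11.2 went in opposite directions. The level of rpl-11.1 was 15432, 21195 and 21944 normalized reads on control RNAi and 8278, 10316 and 9120.5 on sqd-1 RNAi (-1.07 ± 0.177, adjusted p 0.000174). That of rpl-11.2 was 5508, 6608 and 8009 on control RNAi and 10758, 9386 and 9239 on sqd-1 RNAi (0.56 ± 0.1702, adjusted p 0.0116). Of 33 proteasome subunit genes 29 were lower (87.9%) and 1 higher (median -0.69), and 14 were lower with scaling to the reads outside ribosomal RNA. The exception was rpn-6.2, at 349.8, 390.2 and 439 on control RNAi and 683, 828 and 859 on sqd-1 RNAi (1.0 ± 0.168), while its paralog rpn-6.1 was at -1.13 ± 0.163. The elongation factor gene eef-1A.2 rose from 9328, 11815 and 13389 to 29438, 24334 and 25474 (1.21 ± 0.175, adjusted p 6e-05).

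Of 87 flp and nlp neuropeptide genes 50 were higher (57.5%, against 27.3% of all genes tested) and 1 lower (median 0.66). The higher count was 29 without control replicate 2 and 77 with scaling to the reads outside ribosomal RNA. The antimicrobial peptide genes nlp-29 and nlp-34 were at 1.99 ± 0.338 and 2.12 ± 0.357, and nlp-36 was the lower gene (-0.81 ± 0.192), a call lost with the last of these scalings (adjusted p 0.0571). Of 18 insulin-like peptide genes 5 (27.8%, against 27.3% of all genes tested) were higher and ins-33 was lower, with ins-37 at 1.79 ± 0.262, and the count of higher genes was 2 without control replicate 2 or sqd-1 RNAi replicate 1 and 3 without sqd-1 RNAi replicate 3.

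The chromosomes differed in the share of protein-coding genes called. On the autosomes I, II, III, IV and V the share of tested genes that were lower was 44.8%, 38.3%, 46.7%, 34.2% and 27.5%, against 15.1% on the X chromosome. The share that were higher was 20.9% on the X chromosome and 20.9% to 31.4% on the autosomes. At least 2-fold rises were called for 8.29% of X-linked genes and 13.95% to 21.7% of autosomal genes. The X chromosome is known to hold few genes that are active in the germ line, and no test of the chromosome difference was made. Even so, some of the largest single changes were X-linked, among them dpy-3, dpy-7 and lpr-3 upward and K04C1.5 and meg-1 downward.

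**Figure D5:**
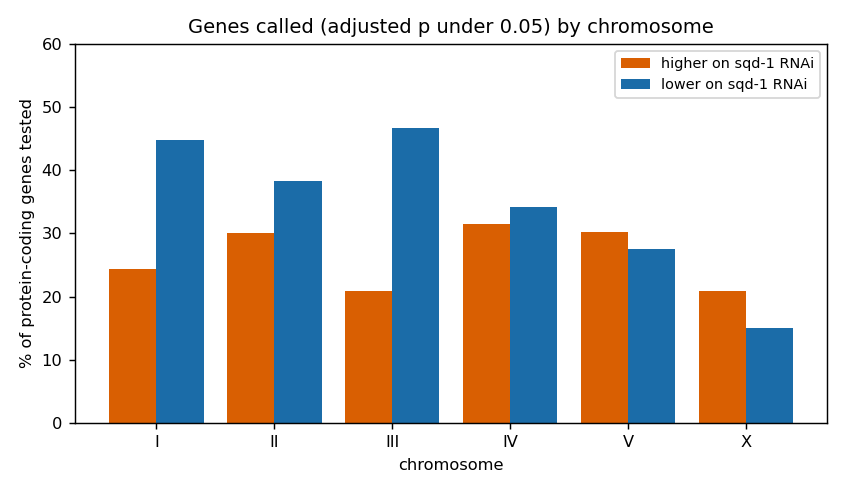
Share of tested protein-coding genes called higher (orange) or lower (blue) on sqd-1 RNAi at an adjusted p under 0.05, by chromosome, as percent of the genes tested on it. The X chromosome has the lowest share of lower genes, 15.1%, and chromosome III the highest, 46.7%.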

How the data were processed

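RNA was poly-A selected and made into stranded libraries, per the labels' protocols. The submitters' processing notes name STAR 2.7.10b and DESeq2, while the read counter, its use of strand and the genome build are not given in the sources used here. The deposited table held, for 23206 genes, the authors' signal for each library (gene counts divided by DESeq2 size factors), their log2 fold change and their p-value adjusted over genes. Dividing by the value of 1 read (0.772 to 1.35 by library) gave whole reads for 100% of values within 0.01, and these served edgeR and DESeq2.

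The main test was limma 3.58.1 in R 4.3.3 with a variance trend on log2 (normalized reads + 1), for the 14489 genes with a mean of at least 10 over the 6 libraries, and with Benjamini-Hochberg adjustment over all of them. The other 8717 genes were not tested. A gene was called at an adjusted p under 0.05, and errors after log2 fold changes are standard errors. This log2 fold change is a difference of mean logs, so for low or uneven genes it can lie below or above the log2 ratio of the means. Alternatives used edgeR 4.0.16 and DESeq2 1.42.0 on whole reads, other scalings, filters and pseudocounts, the replicate number as a block, and each library left out in turn. The limma step was tested on simulated data. The authors' deposited table had 8501 genes at an adjusted p under 0.05, of which 8227 were also called here and 0 in the opposite direction.

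Deviations from the group means correlated at 0.28 to 0.37 between libraries of the same replicate number, which comes from the titles. The values of -0.20 to -0.11 between different numbers add nothing, because the deviations within a group sum to 0. Same-numbered libraries thus deviated together in part, while the major sperm protein genes deviated in opposite directions in replicate 3. Gene names, positions and overlaps came from the WBcel235 annotation, and 17 of the table's genes were not in it. Promoter sequences were not used here. Genes were named from a rule that picked 214. It took sqd-1, adr-2, and the 10 largest called rises and falls without overlap whose higher group averaged at least 100 normalized reads. It also took the 5 largest gains and losses of mean normalized reads among called genes outside ribosomal RNA. The key genes marked in the lists and the 2 largest called rises and falls of each list completed it. The text describes 133 of the 214, a choice made with their values known, and it includes all 11 tested genes of the rule that were not called. Another 18 genes were named after their values were seen and are marked as such. The comparison, gene lists and rule were chosen with earlier results of these data known.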

Additional observations from a re-analysis of the deposited data

How the results depend on the processing

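Of 14489 genes, 7776 to 8581 were called without any 1 library, 3472 to 3774 higher and 4304 to 4807 lower. With the replicate number as a block, 9532 were called, 4304 higher and 5228 lower. Requiring at least a 2-fold change left 5024 genes, 2349 of them lower, and 11 major sperm protein genes. Scaling to the reads outside ribosomal RNA, chosen after seeing the data, gave 6188 higher and 3391 lower genes. The other counts over all genes stayed within 1.5 times the main one. Low genes, sequencing depth and 3 libraries a group limit what was detectable.

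Gene lists and genes near 0 changed sign. Under TMM, upper-quartile, outside ribosomal RNA and edgeR scaling, in that order, the median log2 fold change of the intestinal markers was 0.047, 0.071, 0.29 and 0.12, and that of the gonadal sheath and spermatheca markers 0.12, 0.14, 0.36 and 0.19 (0.028 with DESeq2). In the same order cpb-1 was at 0.028, 0.052, 0.27 and 0.11, nhr-23 at 0.071, 0.095, 0.31 and 0.14, and rme-1 at 0.062, 0.087, 0.302 and 0.13. With scaling to the reads outside ribosomal RNA the respiratory chain median was 0.055, perm-2 was at 0.045, dpy-17 at 0.11 and cpg-9 at 0.19 (0.0295 with edgeR). With the same scaling syp-1 was at 0.094, vit-6 at 0.199 (0.056 with edgeR) and elt-2 at 0.215 (0.0404 with edgeR and 0.0006015 with upper-quartile scaling). That scaling also brought calls as higher for ges-1 (0.38), rme-1, cki-1 (0.72), cpg-7 (0.75), bli-6 (0.77), mec-5 (0.497) and nas-37 (0.74). The value of lim-7 is the median of the sheath and spermatheca markers and moved with it. Leaving out any 1 library gave ranges of -0.11 to 0.045 for the intestinal markers, -0.14 to 0.099 for the sheath and spermatheca markers, and -0.054 to 0.13 for the excretory and coelomocyte markers. The ranges were -0.22 to 0.036 for cpb-1, -0.0396 to 0.21 for cst-1, -0.18 to 0.053 for nhr-23, -0.088 to 0.19 for ges-1, -0.296 to 0.0698 for vit-6, -0.13 to 0.011 for rme-1 and -0.102 to 0.57 for spe-36. None of these genes was called in the main test, and the cause of the changes of sign was not tested. With the replicate block, glh-1, nas-37, spe-48 and vit-4 gained their calls, among the genes named. The promoter comparison could not be run.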

Other observations

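Gene families sorted by name alone, with at least 20 members tested, gave 51 groups. Over all genes tested 33.8% were lower and 27.3% higher. Nuclear pore genes (npp) were lower for 24 of 25 members and higher for 0, with a median log2 fold change of -1.12. The mitochondrial ribosome families mrpl and mrps were lower for 38 of 41 and 26 of 29 members (medians -0.75 and -0.84), and the vacuolar sorting family vps for 24 of 31 (median -0.86). Translation initiation factor genes (eif) were lower for 21 of 25. In the other direction, neprilysin-like peptidase genes (nep) were higher for 17 of 21 members, with 0 lower and a median of 1.27. The oac family of acyltransferase-like genes was higher for 19 of 25 and lower for 1 (median 1.37). The cuticlin-like cutl family, of extracellular matrix proteins, was higher for 10 of 20 and lower for 0 (median 1.02). Among 179 nuclear hormone receptor genes (nhr) 47 were higher (26.3%, against 27.3% of all genes tested) and 15 lower (8.38%, against 33.8%). These families were described after their values were seen.

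Of 466 pseudogenes tested 229 were higher and 75 lower, with a median of 0.79, against 3690 higher and 4801 lower of 13856 protein-coding genes. Reads on pseudogenes may come from their parent genes.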
